A study of Homo sapiens with 2 samples.

Results

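The ETS transcription factors FLI1, SPI1, ERG, ETS1, ETS2, ETV6, ELF1, ELF2, GABPA and ELK1 were described in erythroleukemia cells treated with the 3,3′-diindolylmethane derivative L1. The 10 genes were found by their gene symbol, and ERG, which had no deposited FPKM value, by its Ensembl identifier. They were 10 of the 61806 genes in the count table, and 9 of them were among the 13924 genes with an FPKM value, a level scaled for both gene length and library size. HEL is a human erythroleukemia cell line that carries both red-cell and platelet-lineage features. The cells were labelled wild type and were kept for 24 h with L1 at 1 µM or with 0.5% DMSO, the solvent control, and their polyadenylated RNA was sequenced. The labels did not state whether the L1 culture also held DMSO. Each condition had 1 library, and the labels did not say how many cultures it came from. No test was therefore possible, and every difference below compares these 2 libraries. The 95% intervals cover counting error only and not the variation between cultures.

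ETS proteins share a DNA-binding domain, the ETS domain, that contacts a short GGAA core in promoters and enhancers. FLI1 and ERG are close relatives that act in blood stem cells, megakaryocytes and endothelium, and FLI1 is known to favour megakaryocytic over erythroid genes. SPI1 (PU.1) drives myeloid and B cell genes and opposes GATA1 in erythroid precursors. FLI1 and SPI1 are both known as sites of retroviral integration in mouse erythroleukemia, and microRNA miR-145 is known to lower FLI1 protein.

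The miR-145-5p sequence and its matches in the members' 3′ UTRs are shown first, as this microRNA is known to act on FLI1. The mature strand lies at chr5:149430661-149430683 on the plus strand (RefSeq, GRCh38.p14), and capitals mark its seed, bases 2 to 8.
hsa-miR-145-5p: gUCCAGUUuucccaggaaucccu
The letters complementary to the seed, AACTGGA, were searched on the sense strand of 1 annotated 3′ UTR per gene (GENCODE 29, GRCh38). FLI1 held 3 matches in 2278 bases and ERG held 1 in 3373 bases, and the other 8 members held 0. Each FLI1 window is given with the match in capitals, and the ERG window is on the minus strand of chromosome 21.
FLI1 at chr11:128811068-128811097: tggccttgaagggaagacaaAACTGGAtgt
FLI1 at chr11:128811453-128811482: gaccaaattcagtggatggcAACTGGAaca
FLI1 at chr11:128811493-128811522: ggccagtgaagttttcacccAACTGGAatt
ERG at chr21:38382438-38382467: gtttgtcaaatgaaaattttAACTGGAatt
At least 1 such match occurred in 12.5% of 19034 3′ UTRs, and in 20.3% of the 2217 whose length was within 20% of that of FLI1. The MIR145 gene had 0 counts in both libraries, and its host transcript CARMN had 13 DMSO counts and 11 L1 counts. These libraries were made from captured mRNA, which does not hold mature microRNAs, so the level of miR-145 was not measured.

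The DMSO library held 32556872 counts and the L1 library 27135647. Library sizes were scaled by the trimmed mean of M values (TMM), and 18123 genes had at least 10 counts in at least 1 library. Their median log2 ratio of L1 over DMSO was -0.004. For the 6479 genes with at least 1000 counts in the higher library, the middle 90% of ratios ran from -0.65 to 0.60. The erythroid markers, 9 of 9, and the megakaryocytic markers, 4 of 5, were counted in HEL, with PF4 at 0. The T cell markers CD3D, CD3E and CD5, the B cell marker MS4A1, the epithelial markers EPCAM and KRT19 and the endothelial marker CDH5 were at 0 in both libraries. The summed level was at most 3.59 CPM, counts scaled to library size, for the T cell, B cell, epithelial and fibroblast lists. CD79A, nearly all of the B cell level, was at a log2 ratio of -0.70 (-1.18 to -0.24). The endothelial list, nearly all PECAM1, was at 149 CPM in DMSO and 112 in L1. In bulk RNA, fewer cells of a state and less RNA per cell cannot be told apart.

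Members were moderately and not uniformly different between the libraries. ETS1, ETS2, ELF1 and the scarce ERG were higher in L1, and FLI1, SPI1, ETV6, ELF2 and ELK1 were lower, while the interval of GABPA included 0. ERG was the only member at least 2-fold higher and 0 members were at least 2-fold lower, against 7.12% and 4.83% of all genes kept. Among genes with at least 1000 counts, where the other 9 members lay, 2.04% were at least 2-fold higher and 2.08% lower. The whole interval was above 0 for 4 of 10 members and below 0 for 5 of 10. The background was 26.8% above and 28.6% below over all genes kept, and 34.1% and 41.8% among genes with at least 1000 counts. Intervals off 0 were thus common among well-counted genes. The median log2 ratio of the members was -0.04 (0.01 when scaled to total counts), and 5 members were above 0 and 5 below under each scaling tried.

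**Figure D1:**
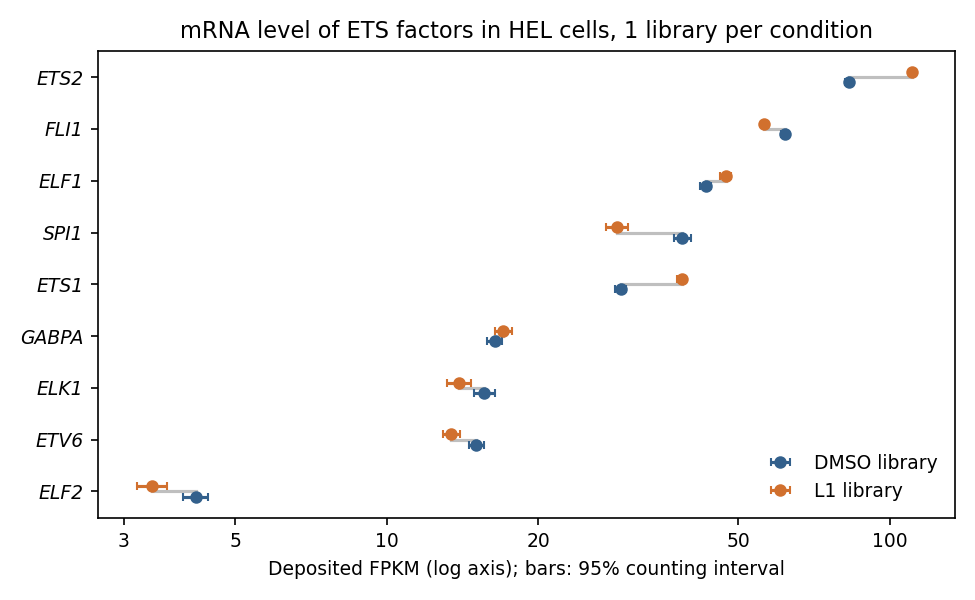
Deposited FPKM of the 9 members with a value, in the DMSO and the L1 library, with exact 95% intervals for counting error. ETS2 stood at 83.0 in DMSO and 111 in L1, and FLI1 at 61.8 and 56.3.

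FLI1 (ENSG00000151702, chromosome 11, 128686535 to 128813267, plus strand) was among the most abundant members in both conditions. It had 15763 DMSO counts and 12403 L1 counts, or 61.8 and 56.3 FPKM. After scaling for library size, its level in L1 was 0.912 times that in DMSO, a log2 ratio of -0.13 (95% interval -0.17 to -0.10). When scaled to total counts the log2 ratio was -0.08, outside this interval and in the same direction. With TMM scaling, 37.2% of the genes with at least 1000 counts had a smaller absolute ratio. The median log2 ratio of these genes was -0.03.

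Within the FLI1 locus, the antisense RNA SENCR had 608 DMSO counts and 583 L1 counts, a log2 ratio of 0.15 whose interval, -0.01 to 0.32, included 0. A second opposite-strand RNA, AP001122.1, had 20 and 47 counts. Both share exon bases with FLI1, 162 for SENCR and 167 for AP001122.1. Whether the counting used strand was not given in the sources used here, so reads over those bases cannot be assigned to 1 strand. The locus as a sum had 16391 and 13033 counts, a log2 ratio of -0.12 (-0.15 to -0.08), which left the direction of FLI1 as it was. Sequence shared with other genes was scarce, with 0.146% of FLI1's 31-base words occurring in another gene's transcripts.

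ERG (ENSG00000157554, chromosome 21, 38380027 to 38661780, minus strand), the closest relative of FLI1 on the list, was nearly silent. It had 15 DMSO counts and 51 L1 counts, that is, 0.469 and 1.85 CPM. The L1 level was 3.94-fold that of DMSO, with an interval from 2.18 to 7.55. On the log2 scale the ratio was 1.98 (1.13 to 2.92). The ERG to FLI1 count ratio was 0.001 in DMSO and 0.0041 in L1. The difference in ERG was therefore one of few reads, and its log2 ratio was 1.84 with a prior count of 2.

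ETS1 and ETS2, the founding members of the family and targets of RAS and ERK signalling, were both higher in L1. ETS1 (ENSG00000134954, chromosome 11, 128458761 to 128587558) had 6627 DMSO counts and 7560 L1 counts, or 29.2 and 38.6 FPKM. The log2 ratio of ETS1 was 0.40 (0.36 to 0.45), a level 32.2% higher. ETS2 (ENSG00000157557, chromosome 21, 38805307 to 38824955) had 13128 DMSO counts and 15137 L1 counts, or 83.0 and 111 FPKM. Its log2 ratio was 0.42 (0.38 to 0.45), a level 33.7% higher. The raw counts of both genes were higher in L1 although that library was the smaller. The ratio of ETS2 to ETS1 counts was 1.98 in DMSO and nearly the same in L1, with a log2 change of 0.02 whose interval was -0.04 to 0.07. Among genes with at least 1000 counts, 79.2% had a smaller absolute ratio than ETS1 and 80.4% a smaller one than ETS2.

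The 2 genes are each neighbours of an ERG-type member. ETS1 lies 99.0 kb from FLI1 on chromosome 11, and ETS2 lies 143.5 kb from ERG on chromosome 21, with 0 protein-coding genes between either pair. The neighbours on chromosome 11 differed in direction, with FLI1 lower and ETS1 higher. The ETS1 to FLI1 count ratio, which needs no library scaling, was 0.42 in DMSO and 0.61 in L1, a log2 change of 0.54 (0.48 to 0.59). The neighbours on chromosome 21, ERG and ETS2, were both higher, from levels that lay far apart.

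SPI1 (ENSG00000066336, chromosome 11, 47354860 to 47378576, minus strand) was the well-counted member farthest below 0. It had 2508 DMSO counts and 1605 L1 counts, or 38.7 and 28.7 FPKM. The L1 level was 0.742 times the DMSO level, a log2 ratio of -0.43 (-0.52 to -0.34), and 81.4% of genes with at least 1000 counts had a smaller absolute ratio. The SPI1 to FLI1 count ratio was 0.16 in DMSO and 0.13 in L1, so that SPI1 was lower relative to FLI1 too, by a log2 change of -0.30 (-0.39 to -0.20). The ETS1 to SPI1 ratio was 2.64 and 4.71. SPI1 shared 0 of its 31-base words with other genes and overlapped no other annotated gene. The monocyte markers CD14, LYZ and CSF1R together had 683 DMSO counts and 493 L1 counts, mostly from LYZ, and their part in the result was not tested.

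ETV6 (TEL), a repressor needed for blood stem cells and platelets, was slightly lower. It had 3464 DMSO counts and 2664 L1 counts (15.1 and 13.4 FPKM), a log2 ratio of -0.17 (-0.24 to -0.09). Relative to FLI1 it differed by -0.03, with an interval from -0.11 to 0.05. ELK1, which binds DNA with SRF at immediate early genes, had 1688 and 1297 counts (15.6 and 13.9 FPKM), with the same log2 ratio of -0.17 (-0.27 to -0.06). The ELK1 to FLI1 ratio also differed by -0.03 (-0.14 to 0.08). The proportions of ETV6 and ELK1 to FLI1 thus differed by no more than counting error, while that of SPI1 differed by more. ETV6 lies at chromosome 12, 11649854 to 11895402, and ELK1 at chromosome X, 47635521 to 47650604.

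ELF1 and ELF2 are close relatives that activate genes in blood cells, and they differed in direction. ELF1 (chromosome 13, 40932028 to 41061440) had 6084 DMSO counts and 5745 L1 counts, or 43.1 and 47.2 FPKM. The log2 ratio of ELF1 was 0.13 (0.08 to 0.18). ELF2 (chromosome 4, 139028112 to 139177218) had 1135 DMSO counts and 803 L1 counts, or 4.17 and 3.42 FPKM. The log2 ratio of ELF2 was -0.29 (-0.42 to -0.15). ELF1 shares 167 exon bases with WBP4 on the other strand, which had 1750 and 1522 counts, and the sum of both genes had a log2 ratio of 0.10 (0.06 to 0.15). For ELF2, 8.44% of the 31-base words occur in another gene's transcripts, and NOCT on the other strand overlaps its gene body, with 297 and 257 counts and 0 shared exon bases. The pseudogene PPP1R14BP3, which also overlaps ELF2, had 209 and 212 counts. The other 8 annotated genes that overlap a member had at most 13 counts.

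GABPA, the DNA-binding subunit of the GABP factor that acts on many housekeeping and mitochondrial promoters, was the member closest to 0. It had 2990 DMSO counts and 2687 L1 counts, or 16.4 and 17.1 FPKM, a log2 ratio of 0.06 (-0.02 to 0.13), which was 0.03 to 0.11 under the other settings tried. GABPA, at chromosome 21, 25734570 to 25772460, shares 413 exon bases with ATP5PF on the other strand, which was counted 7452 and 6715 times. The 2 genes summed had a log2 ratio of 0.06 (0.02 to 0.10). The processed pseudogene GABPAP carries 18.4% of the 31-base words of GABPA, and it had 108 and 78 counts. GABPB1, which encodes the partner subunit, had 1642 and 1159 counts, a log2 ratio of -0.29 (-0.40 to -0.18). The GABPB1 to GABPA count ratio was 0.55 in DMSO and 0.43 in L1, a log2 change of -0.35 (-0.48 to -0.22). The exons of GABPB1 overlap 424 bases of GABPB1-AS1, which had 8121 and 6629 counts. The sum of both had a log2 ratio of -0.11 (-0.16 to -0.07). As most of that sum is GABPB1-AS1, it does not show how far the shared bases affect GABPB1.

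**Figure D2:**
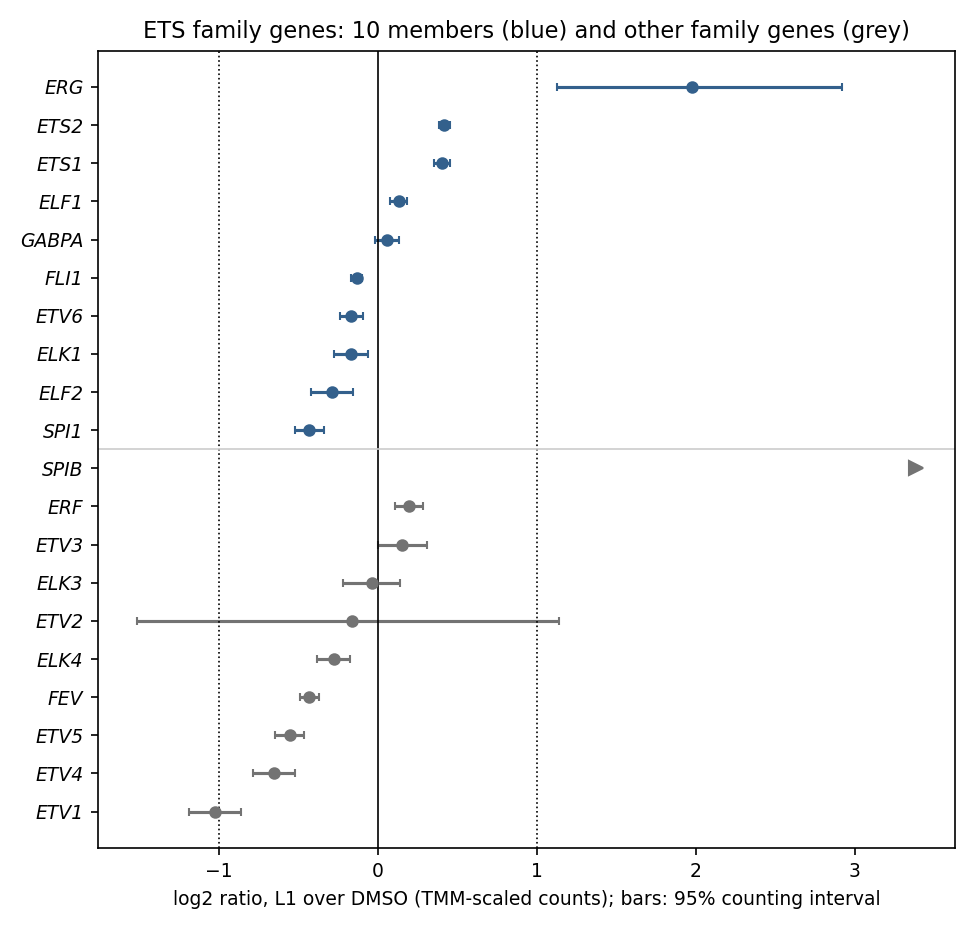
Log2 ratio of L1 over DMSO for the ETS members and the other ETS family genes with enough counts, with exact 95% intervals for counting error. ERG at 1.98 stood apart with the widest interval among the members, ETS1 and ETS2 lay at 0.40 and 0.42, and SPI1 lay at -0.43. The triangle of SPIB marks its ratio against a floor of 3 DMSO counts, and dotted lines mark 2-fold.

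**Figure D3:**
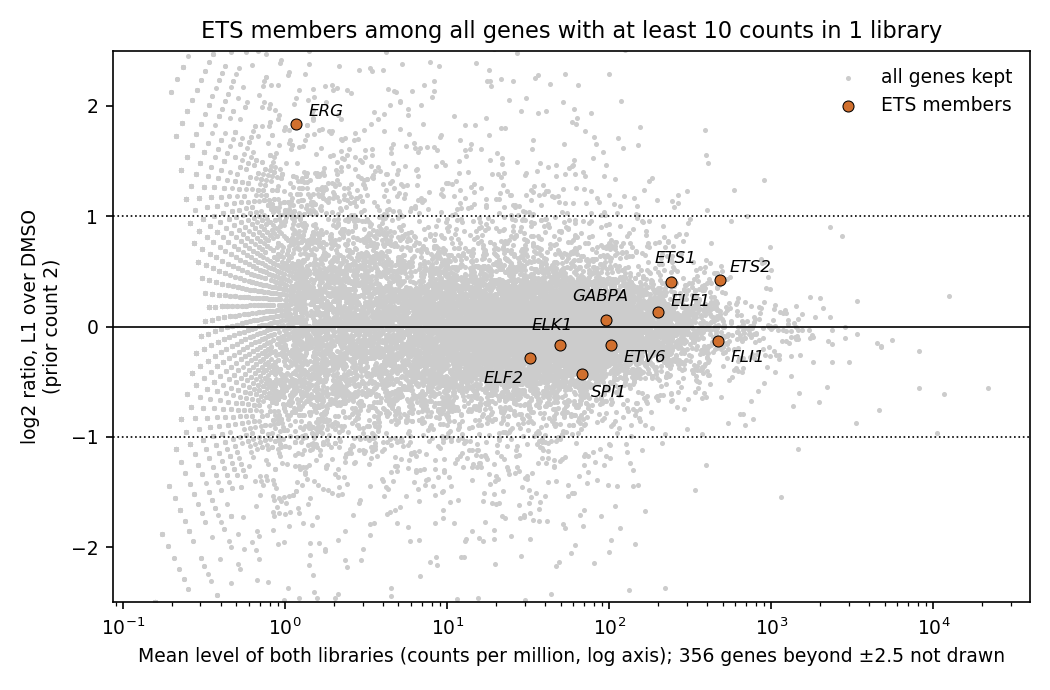
Log2 ratio (prior count of 2) against mean level in CPM on a log axis, for all genes kept (grey) and the 10 members (orange), with dotted lines at 2-fold. The 356 genes beyond ±2.5 are not drawn. ERG lay among the sparsely counted genes, and the other 9 members lay between -0.43 and 0.42.

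Levels per length were compared with the deposited FPKM. In DMSO the order was ETS2, FLI1, ELF1, SPI1, ETS1, GABPA, ELK1, ETV6 and ELF2. The intervals of GABPA and ELK1 overlapped, as did those of ELK1 and ETV6, and the other neighbours were apart. In L1 the order changed in 1 place, as ETS1 at 38.6 FPKM stood above SPI1 at 28.7 FPKM, and ELK1 and ETV6 overlapped again. The summed FPKM of these 9 members was 307 in DMSO and 330 in L1. FLI1 made up 20.1% of that sum in DMSO and 17.1% in L1, SPI1 12.6% and 8.71%, ETS1 9.50% and 11.7%, and ETS2 27.0% and 33.7%. The gap between ETS2 and FLI1 was therefore wider in the L1 library.

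GGAA, the core that ETS domains bind, is common in the members' own promoters. Windows around the RefSeq starts (GRCh38.p14), mostly upstream of the start, were present for 7 of 10 members, with 14 starts in all. FLI1, SPI1 and ETS1 were not among them. GGAA was searched on both strands, so that TTCC also counts, and it occurred in 95.5% of 35116 promoters of the same length with a median of 3 matches. The longer site CCGGAAGT, which contains GGAA and was also searched on both strands, occurred in 4.14% of them. Matches are shown in capitals for the ETS2 start with the most matches, 7, and for the GABPA start, the only member start with CCGGAAGT, which reads ACTTCCGG on the strand shown.
ETS2 at chr21:38805679-38805978, plus strand: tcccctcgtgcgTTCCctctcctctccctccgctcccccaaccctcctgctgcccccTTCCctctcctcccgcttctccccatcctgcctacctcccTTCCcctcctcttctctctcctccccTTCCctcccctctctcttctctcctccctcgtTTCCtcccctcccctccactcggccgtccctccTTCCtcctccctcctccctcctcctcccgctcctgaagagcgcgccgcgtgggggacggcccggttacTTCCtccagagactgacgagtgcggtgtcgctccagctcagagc
GABPA at chr21:25734722-25735021, plus strand: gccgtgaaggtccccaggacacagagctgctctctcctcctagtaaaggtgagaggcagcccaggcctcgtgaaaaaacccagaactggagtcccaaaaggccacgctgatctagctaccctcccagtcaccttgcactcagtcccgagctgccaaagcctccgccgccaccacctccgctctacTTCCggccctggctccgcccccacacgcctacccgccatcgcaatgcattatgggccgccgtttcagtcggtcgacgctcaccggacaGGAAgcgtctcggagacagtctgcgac
The member starts held from 0 to 7 GGAA matches, against a 95th percentile of 7 over all promoters. No binding was measured in these samples.

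Of the other 18 human ETS family genes, 10 had at least 10 counts in 1 library and 5 were at 0 in both, namely ETV7, ELF4, ELF5, SPDEF and SPIC. The 10 had a median log2 ratio of -0.21, with 2 intervals above 0 and 5 below, against 26.8% and 28.6% of all genes kept. SPIB was at least 2-fold higher and ETV1 at least 2-fold lower, against 7.12% and 4.83% of all genes kept. ETV1, ETV4 and ETV5, the PEA3 group that acts downstream of receptor tyrosine kinases, were all lower in L1. ETV1 had 1065 DMSO counts and 452 L1 counts, a log2 ratio of -1.02 (-1.19 to -0.86). With scaling to total counts the ETV1 ratio was -0.97, and with the upper quartile -0.99, which no longer passed 2-fold. ETV4 had 1279 and 702 counts, a log2 ratio of -0.65 (-0.79 to -0.52), and ETV5 had 2647 and 1556 counts, a log2 ratio of -0.55 (-0.64 to -0.46). ETV5 shares 164 exon bases with DGKG on the same strand, counted 314 and 346 times, and their sum had a log2 ratio of -0.43. ETV4 shares 68 with DHX8 on the other strand, counted 3131 and 2619 times, and their sum, mostly DHX8, had a log2 ratio of -0.20.

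FEV, known as a factor of serotonergic neurons, had 5619 DMSO counts and 3596 L1 counts. Its log2 ratio was -0.43 (-0.49 to -0.37), the same as that of SPI1 to 2 decimals. At 112 and 83.2 FPKM, FEV stood above FLI1 in both libraries on the FPKM scale. Recomputed with GENCODE 29 exon lengths, FEV was at 85.7 and 63.6 RPKM, the TMM-scaled level per kilobase. ELK4, a relative of ELK1, had 1829 and 1303 counts, a log2 ratio of -0.28 (-0.38 to -0.17), and ELK3 had 549 and 461, a log2 ratio of -0.04 (-0.22 to 0.14).

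The repressor ERF had 2126 DMSO counts and 2102 L1 counts, a log2 ratio of 0.20 (0.11 to 0.28). Its relative ETV3 had 705 and 676 counts, a log2 ratio of 0.15 whose interval, -0.002 to 0.31, just reached 0. ETV2, which specifies endothelium in the embryo, had 13 and 10 counts. SPIB, the relative of SPI1 in B cells, had 0 DMSO counts and 27 L1 counts. The exact 95% lower limit of its ratio was 7.92-fold, and against a floor of 3 counts in the DMSO library SPIB was 10.4-fold higher. SPIB shares 26.4% of its 31-base words with other genes, 18.5% of them with AC020909.1, which had 0 counts in both libraries. Of the B cell markers, MS4A1 was at 0, while CD79A had 113 DMSO counts and 60 L1 counts. What the SPIB reads came from was not tested. The remaining 3 family genes, ETV3L, ELF3 and EHF, had at most 4 counts.

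Genes that act with ETS factors were described from lists drawn up for the purpose, with earlier results of these data known. The shares over all genes given beside the lists are therefore descriptive only and no test of them. In each list, 3 genes were named by their distance from 0 among genes with at least 100 counts. The counts in every list below stand against these shares over all genes kept: 26.8% of intervals above 0 and 28.6% below. At least 2-fold higher were 7.12% of all genes kept, and 4.83% were lower. Among genes with at least 1000 counts, 34.1% of intervals were above 0 and 41.8% below. Several lists lay near these shares, such as the ETS cofactors and the mitochondrial targets of GABPA. The haematopoietic partner factors, 8 of 8 kept, had a median log2 ratio of -0.18, with 2 intervals above 0 and 5 below, and 0 past 2-fold. TAL1, which binds with GATA1 in red-cell precursors, had 13361 DMSO counts and 8138 L1 counts, a log2 ratio of -0.50. LMO2, the bridge in the same complex, was at -0.33 and LYL1 at -0.27. GATA1 had 6469 and 5923 counts, a log2 ratio of 0.09 (0.03 to 0.14). Among ETS cofactors, 10 of 11 kept, the median was -0.005 (0.04 when scaled to total counts), with 3 intervals above 0 and 3 below. The 3 named by the rule were GABPB2 at 0.35, whose interval of -0.04 to 0.75 included 0, GABPB1 at -0.29 and SIN3A, a corepressor scaffold, at -0.27. The 1 gene past 2-fold was CEBPA, a myeloid factor named here after its values were seen, with 14 and 46 counts.

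The megakaryocytic genes that FLI1 is known to activate were mostly lower. Of 11 listed, 10 were kept, with a median log2 ratio of -0.65. The whole interval was above 0 for 1 and below 0 for 8, against 26.8% and 28.6% of all genes kept. At least 2-fold lower was 1 gene, against 4.83% of all genes kept. GP1BB, a subunit of the von Willebrand factor receptor, had 1177 DMSO counts and 480 L1 counts, a log2 ratio of -1.08 (-1.24 to -0.93). Its counts are uncertain, since GP1BB shares 1006 exon bases with SEPT5 (1255 and 542 counts) and 1553 with the readthrough gene SEPT5-GP1BB (49 and 194 counts), both on the same strand. Summed with SEPT5-GP1BB, the log2 ratio of GP1BB was -0.65 (-0.79 to -0.51), and summed with both it was -0.82, so that no listed gene was then at least 2-fold lower. TREML1, a receptor of platelet granules, had 148 and 69 counts, a log2 ratio of -0.89 (-1.32 to -0.47). ITGB3, the integrin beta chain of the fibrinogen receptor, had 10484 and 5470 counts, a log2 ratio of -0.73 (-0.77 to -0.68). Its partner chain ITGA2B, also named after its values were seen, had 40168 and 35288 counts, a log2 ratio of 0.03, which was below 0 when DESeq2 size factors were used. FLI1 itself, at -0.13, lay above the median of this list.

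The erythroid genes that FLI1 is known to oppose had 9 of 10 kept, with a median log2 ratio of 0.44, 6 intervals above 0 and 2 below, 2 genes at least 2-fold higher and 1 lower. HBA1 had 3928 DMSO counts and 7531 L1 counts, and HBA2 had 2798 and 5412, log2 ratios of 1.15 and 1.16. These alpha globin genes are nearly identical, and their reads cannot be divided with certainty. TFRC, the transferrin receptor, went the other way, with 17721 and 6420 counts and a log2 ratio of -1.25 (-1.29 to -1.21). The summed level of the 9 erythroid markers was 1344 CPM in DMSO and 2094 in L1, and that of the 5 megakaryocytic markers was 1741 and 1601. Most of the latter was ITGA2B, and the other 4 summed to 486 CPM in DMSO and 323 in L1. Most of the erythroid sum was globin, with HBG2 at 634 and 738 CPM, HBG1 at 176 and 604 and HBA1 at 123 and 273. Ratios were above 0 for 8 of the 9 erythroid markers, with GATA1 at only 0.09. KLF1 was the 1 below 0, at -0.08 (-0.16 to -0.01), and EPOR was at 0.15 with an interval, -0.06 to 0.37, that included 0. Of the markers, HBG1, a fetal globin, had 5620 and 16681 counts, a log2 ratio of 1.78. HBG2, the other fetal globin listed, had 20283 and 20372 counts, a log2 ratio of 0.22 (0.19 to 0.25). Both share exon bases with AC104389.5, counted 11295 and 22951 times, so the reads of HBG1 and HBG2 cannot be divided with certainty. The embryonic globin HBE1 had 216 and 571 counts, a log2 ratio of 1.62. HBG1 and HBE1 share exon bases with other genes on the same strand. Summed with AC104389.5, HBG1 was at 1.44. Summed with AC104389.4, which shares 781 bases with it, HBE1 was at 1.58. When HBG2, which shares 37 bases with HBE1, was added too, the sum was at 0.25. That sum is nearly all HBG2 and so does not give the ratio of HBE1. GP1BA was at -0.33 and GP9 at -0.37. Some of these markers are also on the lists above.

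Among 9 AKT and survival genes described downstream of FLI1, all 9 kept, the median log2 ratio was 0.02 (-0.01 with DESeq2 size factors), with 4 intervals above 0 and 3 below, and 1 gene past 2-fold. CDKN1A, the cell cycle inhibitor p21, had 140 DMSO counts and 267 L1 counts, a log2 ratio of 1.14 (0.84 to 1.45). INPP5D (SHIP1), a phosphatase that opposes PI3K signalling and is repressed by FLI1, had 5454 and 8041 counts, a log2 ratio of 0.77 (0.72 to 0.82). AKT1 had 2357 and 2865 counts, a log2 ratio of 0.49 (0.42 to 0.57), and shares 663 exon bases with a gene on the other strand that had 120 and 76. CDKN1B, the inhibitor p27, had 2086 and 1774 counts, a log2 ratio of -0.02 whose interval, -0.11 to 0.07, included 0.

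Of 11 myeloid targets of SPI1, 7 were kept, with a median log2 ratio of -0.12, 0 intervals above 0 and 3 below. CD33, a lectin of myeloid cells, had 4322 DMSO counts and 2722 L1 counts, a log2 ratio of -0.45 (-0.52 to -0.38), beside the -0.43 of SPI1. LYZ was at -0.20 (-0.37 to -0.03) and ITGAM at -0.12 (-0.46 to 0.21). The intervals of BTK, CYBB and FCGR1A included 0, and these genes are named here after their values were seen. BTK had 6228 and 5484 counts, a log2 ratio of 0.03 (-0.02 to 0.08), and CYBB was at 0.07 (-0.15 to 0.29). FCGR1A, with only 18 and 26 counts, was at 0.74 (-0.18 to 1.70). The 1 target at least 2-fold lower was CSF1R, the receptor of a macrophage growth factor, with 36 and 2 counts, a log2 ratio of -3.96. CSF1R was named after its values were seen.

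The ELK1 and SRF targets, 7 of 9 kept, had a median log2 ratio of 0.26, with 3 intervals above 0 and 0 below, while ELK1 itself was at -0.17. FOSB had 53 DMSO counts and 143 L1 counts, a log2 ratio of 1.65 (1.18 to 2.13). MCL1, a survival factor of the BCL2 family, had 1082 and 2436 counts, a log2 ratio of 1.38 (1.28 to 1.49). EGR1 had 564 and 952 counts, a log2 ratio of 0.97 (0.82 to 1.12). FOSB and MCL1 were the 2 past 2-fold. The list was split, and the other genes given here were named after their values were seen. IER2 at 0.05, JUNB at 0.08 and SRF at -0.02 had intervals that included 0. The median was the value of FOS, which had 21 and 22 counts and an interval from -0.65 to 1.21. The 5 mitochondrial targets of GABPA, all kept, had a median log2 ratio of -0.04 (0.01 when scaled to total counts), with 1 interval above 0, 2 below and 0 past 2-fold. They ran from COX4I1 at -0.13 to TFB2M, a mitochondrial transcription factor, at 0.20, with COX5B at -0.08.

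**Figure D4:**
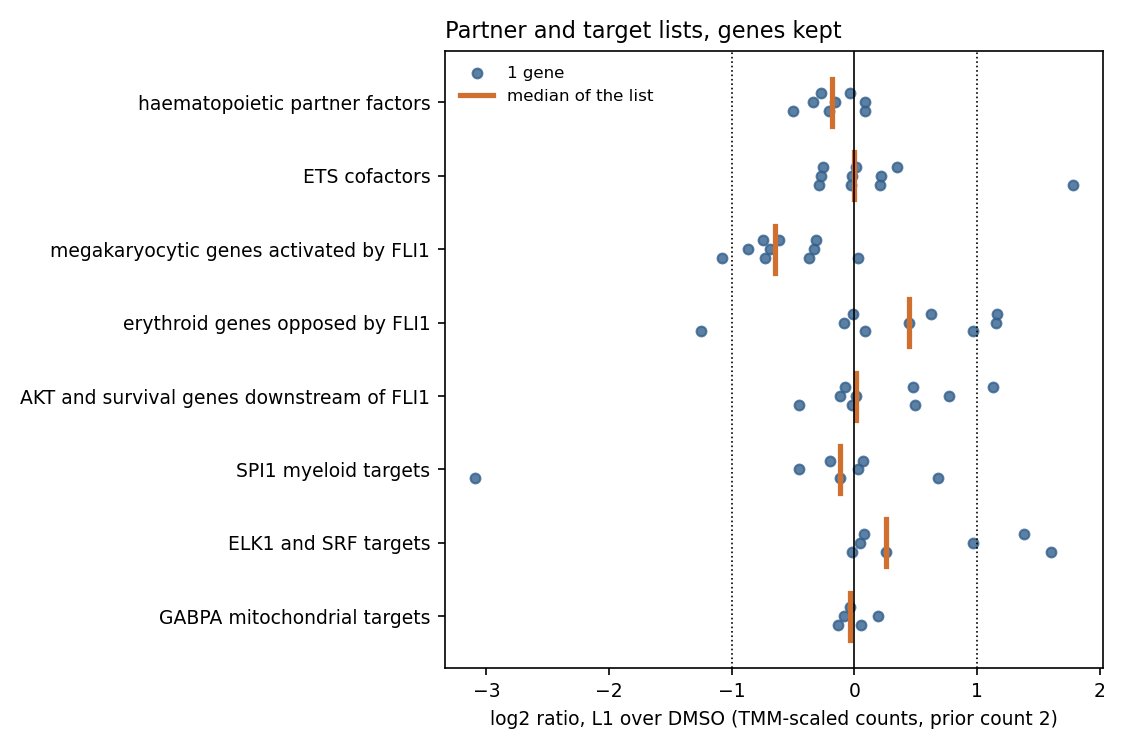
Log2 ratio (prior count of 2) of every kept gene in the lists of partner and target genes, with each point 1 gene, the median of each list as a bar and dotted lines at 2-fold. The megakaryocytic genes had the lowest median of these lists, -0.65, and the erythroid genes the highest, 0.44.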

How the data were processed

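Gene expression of the HEL cell line was measured in 1 DMSO and 1 L1 library. Reads were aligned to hg38, with fastp, HISAT2 2.1.0 and StringTie named in the submitters' processing notes. The counting program, the annotation and the use of strand were not given in the sources used here. The authors deposited raw read counts for 61806 genes. FPKM values deposited by the authors cover 13924 genes, all above 1 CPM in both libraries, which carry the TMM library ratio of 1.16 between DMSO and L1. 0 columns of the count table lacked a sample.

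TMM factors were computed with edgeR 4.0.16 (R 4.3.3) over all genes, from totals of 32556872 (DMSO) and 27135647 (L1) counts. Single genes are given as log2 ratios of L1 over DMSO without a prior count, with exact 95% Clopper-Pearson intervals for counting error only. Intervals of a ratio between a pair of genes used the normal approximation on log counts. Medians and counts past 2-fold used a prior count of 2 and genes with at least 10 counts in 1 library. No test was run, since 1 library per group leaves no spread to estimate. Alternatives were total counts, DESeq2 1.42.0 size factors, upper-quartile scaling, log2(FPKM + 1) and log2(FPKM + 0.1), other count filters, priors and folds, and sums with overlapping genes or pseudogenes. Sums for listed genes were added after seeing the data.

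By rule the genes named are all members, every other ETS family gene with at least 10 counts in 1 library, genes that overlap a member, 3 per list farthest from 0 among genes whose higher count was at least 100, and GATA1, TFRC, CDKN1A, CDKN1B and AKT1. Other genes are named as chosen after their values were seen, as family genes under that minimum, as markers, or for miR-145. Results of some genes are not reported here. The members and lists were chosen with earlier results of these data known. Positions, exon overlaps and 31-base words came from GENCODE 29 (GRCh38), which held 58254 of the gene identifiers, and miRNA and promoter sequences from RefSeq (GRCh38.p14). The scripts, in Python 3.11.15, were tested on simulated data.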

Additional observations from a re-analysis of the deposited data

How the results depend on the processing

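With scaling to total counts, 3 members moved outside their counting intervals, FLI1 to -0.083, ETS1 to 0.45 and ETS2 to 0.47. The other 52 of 55 values of members under alternative settings stayed inside them, but not all of these values were free to move. The FPKM values carry the TMM library ratio, so they could hardly differ from the main values. The pseudogenes of ETS2 and ELK1 had 0 counts, so those sums could not differ. The 52 of 55 is therefore no measure of robustness. The direction of the 9 members whose interval lay off 0 did not change under any setting tried. Other scalings moved the median of all genes by 0.05 for total counts, by -0.03 for the size factors of DESeq2 and by 0.03 for the upper quartile. The numbers of genes at least 2-fold higher and lower, 1290 and 876, were 3544 and 1811 without a filter on low counts, 387 and 361 with at least 100 counts in 1 library, 694 and 491 with at least 10 in both, 688 and 502 for protein-coding genes, 2506 and 2065 at 1.5-fold, 567 and 345 at 3-fold, 547 and 350 when the whole interval had to pass 2-fold, 199 and 153 on the log2(FPKM + 1) scale, and 348 and 298 when 0.1 was added to FPKM instead. The stricter filters test fewer genes, and the FPKM tables hold fewer genes. ERG has no FPKM value, and its ratio rests on 15 and 51 counts. No paired analysis was possible because each group had 1 library, and for the same reason no library could be left out.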
